A study of Mus musculus with 9 samples.

Results

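Genes that build the mitotic spindle, attach chromosomes to it and divide the cell were followed in MC3T3-E1 preosteoblasts before and after osteogenic differentiation, with and without depletion of Runx2. The set held 39 genes named by symbol, and all 39 were found among the 19937 genes measured, each through a probe set that carried 1 gene symbol. They were sorted into 8 roles by what their proteins are known to do. RNA of each culture was read on its own Affymetrix Mouse Gene 1.0 ST array, which made 9 arrays, and each value below is the log2 expression deposited by the authors. MC3T3-E1 subclone 4 is a cell line from mouse calvaria, the roof of the skull, that forms a mineralizing collagen matrix when it is given ascorbic acid and beta-glycerophosphate. In the Scr day 0 group, 3 cultures carried a lentiviral short hairpin RNA (shRNA) of scrambled sequence and were taken while still proliferating. In the Scr day 9 group, 3 cultures with the same scrambled hairpin had been brought near confluency and differentiated for 9 days. In the shRunx2 day 9 group, 3 cultures carried a hairpin against Runx2, a transcription factor required for bone formation, and were treated in the same way. Every group had been infected with lentivirus and sorted for green fluorescent protein, and the labels call the cultures biological replicates. A single hairpin sequence was used and shRunx2 cells were not profiled at day 0, so a side effect of that hairpin and an effect of lost Runx2 cannot be told apart. Likewise, differentiation and the longer time spent in dense culture cannot be told apart between day 0 and day 9. Runx2 itself is not analysed here.

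In mitosis, condensed chromosomes are captured by microtubules at their kinetochores, a checkpoint holds the cell until every kinetochore is attached, and separase then releases the sister chromatids, after which the cell is cleaved at the spindle midzone. Many of the genes involved are transcribed mainly in late G2 and M phase, so their RNA is abundant in populations that divide and scarce in those that have left the cell cycle. Osteoblast precursors divide until they become confluent and then differentiate with little further division. On arrays of whole cultures, fewer cells in mitosis and less RNA per cell cannot be told apart.

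Short promoter elements are tied to transcription late in the cell cycle, and 2 of them are shown first because they describe the members by sequence and not by any value measured here. The cell cycle genes homology region (CHR, TTTGAA) is bound by the MuvB complexes that repress or activate mitotic genes, and the CCAAT box (CCAAT) is bound by the NF-Y factor. RefSeq promoter windows (build GRCm38.p6) of the 250 bases before each transcription start were found for 32 of the 39 members, some with several starts, which gave 34 windows. Ect2 and Prc1 had 2 windows each that shared most of their bases, so a match there could count in both. Each element was searched on both strands, and none of the elements searched contains another. CCAAT occurred in 26 of the 34 windows (76.5%), against 34.5% of the 19176 windows of genes measured and 33.8% of all 32851 windows. TTTGAA occurred in 12 of the 34 (35.3%), against 13.4% and 16%. Both occurred together in 10 windows (29.4%), against 4.78% of the windows of genes measured, and 14 windows (41.2%, against 11.1%) held several CCAAT boxes. The Runx motif TGTGGT was in 5 of the 34 (14.7%), against 11.8% and 14.0%. A match to so few letters describes the sequence and is not a site of binding. By a rule on the size of the fall at day 9, the CHR match (in capitals) is shown with its surroundings, 30 bases in all, for 4 members.
Kif2c (chr4:117178858-117178887, minus strand): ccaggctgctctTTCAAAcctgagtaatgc
Espl1 (chr15:102296254-102296283, plus strand): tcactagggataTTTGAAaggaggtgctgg
Cdc20 (chr4:118437344-118437373, minus strand): agacagttgggtTTTGAAggagccaatgaa
Ncapd2 (chr6:125191692-125191721, minus strand): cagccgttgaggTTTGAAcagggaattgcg
The match began 18 bases before the annotated start in Cdc20 and 27 bases before it in Espl1. It lay farther upstream, 103 bases before the start, in Kif2c, where it reads TTCAAA on the gene's strand, and 123 bases before it in Ncapd2. The windows of Kif2c, Espl1 and Ncapd2 overlap the annotated span of the same gene, so that another start of the gene lies farther upstream.

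Whole windows are shown for 5 members, chosen after their sequences were seen from the 9 windows that overlapped no annotated gene, to set promoters with both elements, with CCAAT boxes alone and with neither beside each other. Capitals mark TTTGAA and CCAAT in either direction, and each window ends at the base before the start.
Cdc20 (chr4:118437344-118437593, minus strand): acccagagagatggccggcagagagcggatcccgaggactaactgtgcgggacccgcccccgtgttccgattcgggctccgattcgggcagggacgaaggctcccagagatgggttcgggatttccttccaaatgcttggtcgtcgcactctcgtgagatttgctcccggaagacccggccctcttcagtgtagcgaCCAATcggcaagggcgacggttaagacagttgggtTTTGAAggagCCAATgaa
Plk1 (chr7:122159185-122159434, plus strand): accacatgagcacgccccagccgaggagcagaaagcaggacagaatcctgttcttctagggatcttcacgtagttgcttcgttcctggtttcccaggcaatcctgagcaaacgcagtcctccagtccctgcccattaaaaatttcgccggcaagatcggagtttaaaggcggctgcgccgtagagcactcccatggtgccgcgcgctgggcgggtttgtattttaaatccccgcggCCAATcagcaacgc
Racgap1 (chr15:99651657-99651906, minus strand): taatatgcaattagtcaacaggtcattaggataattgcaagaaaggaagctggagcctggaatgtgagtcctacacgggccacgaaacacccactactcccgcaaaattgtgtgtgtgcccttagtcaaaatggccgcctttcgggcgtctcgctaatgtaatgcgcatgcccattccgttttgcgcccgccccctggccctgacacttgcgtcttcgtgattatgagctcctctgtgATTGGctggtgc
Bub1 (chr2:127831860-127832109, minus strand): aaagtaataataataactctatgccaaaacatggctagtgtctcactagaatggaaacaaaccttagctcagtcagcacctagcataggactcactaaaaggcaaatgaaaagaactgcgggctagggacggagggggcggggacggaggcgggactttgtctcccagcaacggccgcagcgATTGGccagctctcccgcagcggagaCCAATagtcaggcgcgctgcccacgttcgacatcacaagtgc
Birc5 (chr11:117848987-117849236, plus strand): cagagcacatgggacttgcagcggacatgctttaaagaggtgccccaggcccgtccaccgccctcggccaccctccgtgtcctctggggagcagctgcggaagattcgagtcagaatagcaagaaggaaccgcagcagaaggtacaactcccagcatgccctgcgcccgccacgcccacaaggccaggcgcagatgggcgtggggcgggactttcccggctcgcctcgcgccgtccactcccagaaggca
Cdc20 held the TTTGAA element 18 bases before its start, between CCAAT boxes at 53 and 8 bases. Plk1 had a CCAAT box at 14 bases, Racgap1 one at 12 bases and Bub1 a pair at 68 and 42 bases. Birc5 held neither element in these 250 bases. Of the 9 windows, those of Smc2 and Kif11 also held both elements and are not shown. Their log2 changes at day 9 were -0.22 and -0.14, smaller falls than those of the members shown (-0.56 in Birc5 to -0.36 in Bub1). Whether the elements go with the size of a member's change was not tested.

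Expression in Scr cells at day 9 was compared with day 0 to ask how the division machinery changes as preosteoblasts differentiate. Of the 39 members, 37 fell and 2 rose at an adjusted p under 0.05, whereas 17.1% of all genes measured were lower and 14.5% higher by the same test. Adjusted p values of the members ran from 6.31e-07 (Aurka) to 0.037 (Kif11). The members' median log2 change was -0.38 (1.30-fold lower), within a range of -0.65 to 0.17, and the median of all genes was -0.016. The changes were modest in size: 31 members fell between 1.2-fold and 1.5-fold, and 1 member, Aurka, fell by at least 1.5-fold, as did 2.25% of all genes. In all 37 members that fell, the 3 day 9 arrays lay below the 3 day 0 arrays, a separation seen in this direction for 22% of genes. The median SE of a member's change was 0.047 on the log2 scale. It rests on a spread shared by the 3 groups in the fit. The members' median SD was 0.057 at Scr day 0, 0.026 at Scr day 9 and 0.077 in shRunx2 cells.

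**Figure D1:**
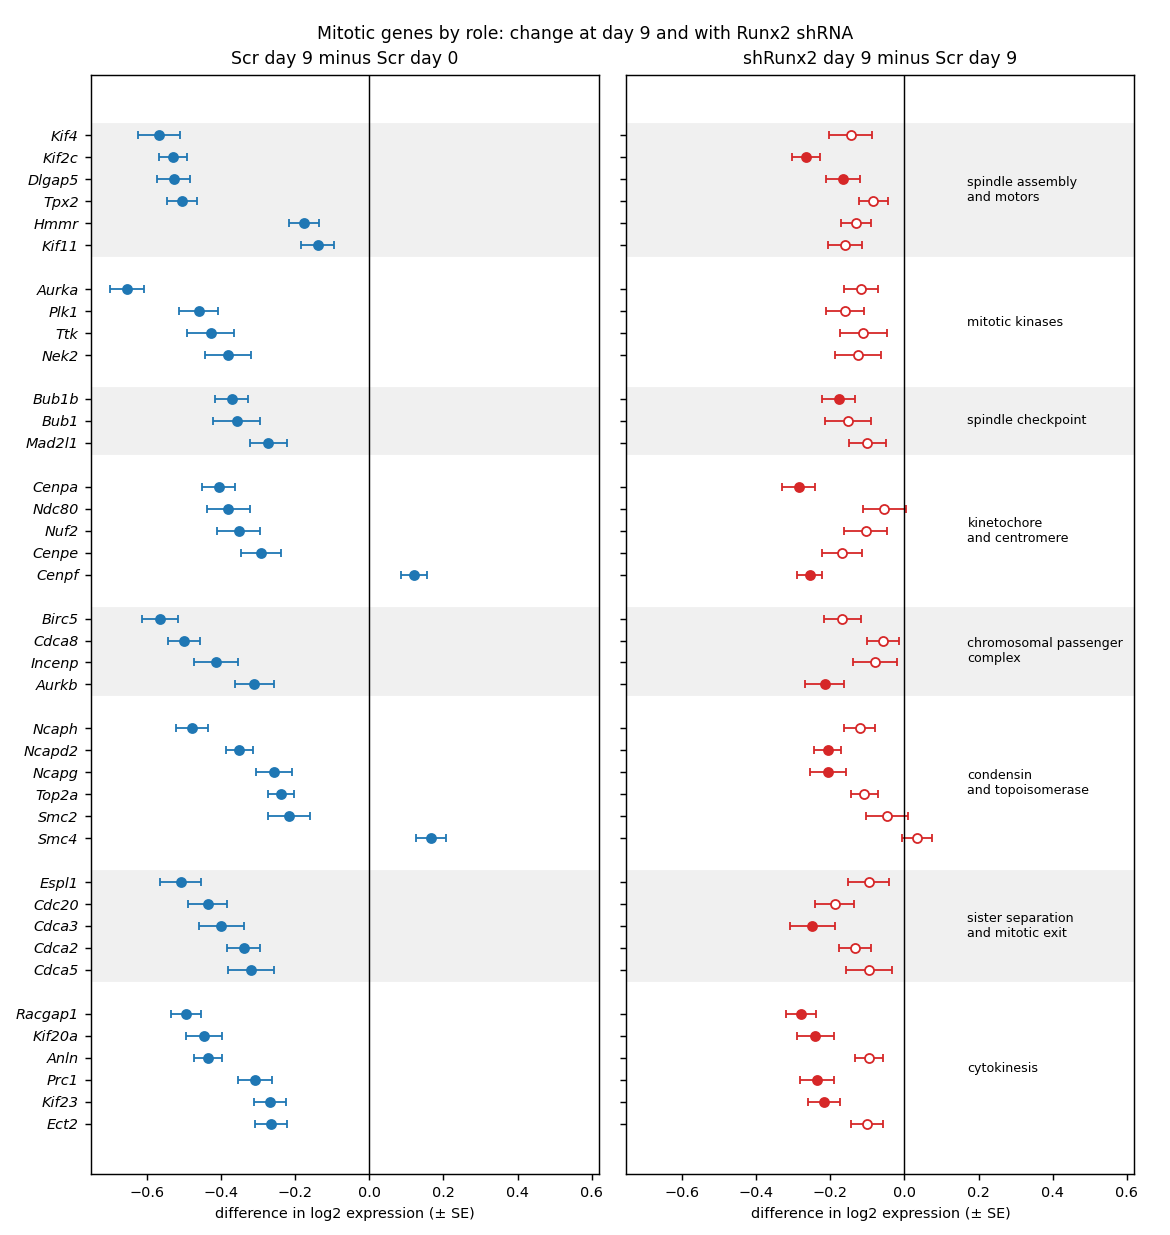
Difference in log2 expression for each of the 39 members, grouped by role, between Scr day 9 and Scr day 0 (left) and between shRunx2 day 9 and Scr day 9 (right). Points are limma estimates from 3 arrays a group, bars are ± 1 SE, filled points had an adjusted p under 0.05 and open points did not. On the left every point but those of Cenpf and Smc4 lies below 0, and on the right every point but that of Smc4 does, with 13 filled.

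Depletion of Runx2 was examined at day 9 by comparing shRunx2 with Scr cells. There 13 of the 39 members (33.3%) were lower and 0 were higher, against 4.66% and 2.73% of all genes, and 26 did not pass. The members' median log2 change was -0.14 (1.11-fold lower), with a range of -0.29 to 0.033, and that of all genes was -0.0041. The estimate was below 0 in 38 of the 39 members (97.4%), as it was in 52.1% of all genes, and Smc4 was the exception. The 3 shRunx2 arrays lay below the 3 Scr arrays in 29 members, or 74.4%, against 15.3% of genes. At an unadjusted p under 0.05, 27 of the 39 members differed (69.2%), against 19.6% of all genes. No member differed by 1.5-fold.

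The number of members that passed depended on single arrays. In shRunx2 replicate 1 the members' mean log2 expression was 10.19, compared with 10.29 and 10.26 in replicates 2 and 3, and 2 of the 39 members exceeded their group mean there. Without that array 6 of the 13 members still passed, namely Cenpa, Cenpf, Kif2c, Ncapd2, Prc1 and Racgap1, and the median change was -0.12. These 6 passed in each of the 18 alternative analyses, and the other 7 in between 6 (Dlgap5) and 17 (Kif23) of them. Without Scr day 9 replicate 2 the count was 7 and without Scr day 9 replicate 3 it was 8. It was also 7 when every probe set on the array, named or not, entered the adjustment. Calls were lost across the whole table as well, so the loss was not confined to the members. Leaving out shRunx2 replicate 1 cut the genes lower in shRunx2 cells from 930 to 507. Among the Scr day 9 arrays, 503 genes remained with replicate 2 dropped and 803 with replicate 3 dropped. With every probe set the number was 590. The other members that passed were Cdca3, Kif20a, Kif23, Aurkb, Ncapg, Bub1b and Dlgap5, whose adjusted p without shRunx2 replicate 1 ran from 0.0516 (Kif23) to 0.16 (Dlgap5).

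Set against undifferentiated cells, shRunx2 cells at day 9 had 38 members lower and 1 higher, against 20.4% and 13.8% of all genes. Here 14 members were at least 1.5-fold lower, which 2.79% of all genes were. They ran from Kif2c (1.74-fold), Racgap1 (1.71-fold) and Aurka (1.71-fold) through Birc5 (1.66-fold), Kif4 (1.64-fold), Dlgap5 (1.62-fold), Cenpa (1.62-fold), Kif20a (1.61-fold), Cdca3 (1.57-fold), Cdc20 (1.54-fold), Plk1 (1.54-fold), Espl1 (1.52-fold) and Ncaph (1.51-fold) to Tpx2 (1.504-fold). The median over the members was -0.53 and that over all genes -0.0087. This comparison shares arrays with both others and is the sum of their changes, so it is no separate evidence.

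On single arrays, the members' median distance from their Scr day 0 means was -0.36, -0.38 and -0.38 in the Scr day 9 cultures and -0.60, -0.48 and -0.54 in the shRunx2 cultures. The groups did not overlap. For 29 DNA replication genes the same distance was -0.37, -0.38 and -0.40 in Scr day 9 and -0.52, -0.40 and -0.44 in shRunx2 cultures, so the lists moved by a like amount in Scr cells and the replication genes stood nearer to their Scr day 9 level in shRunx2 cells. The median over all genes stayed between -0.039 and 0.0021 on every array.

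**Figure D2:**
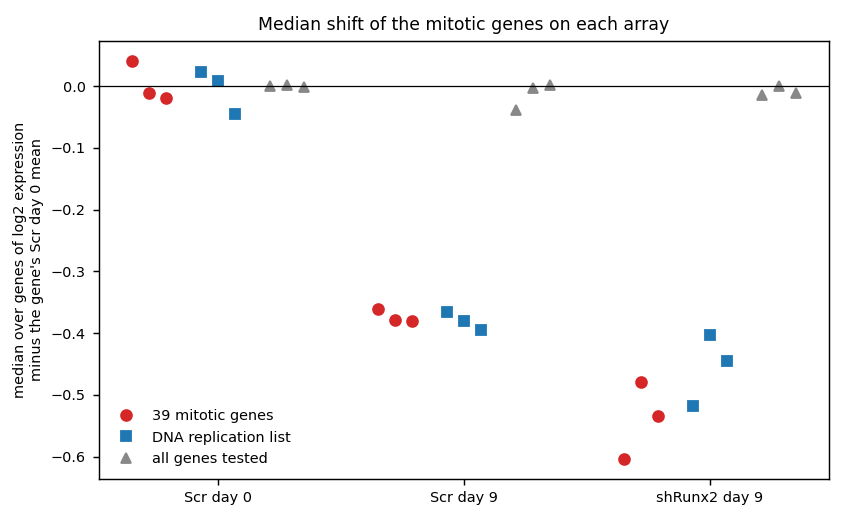
Median over genes of log2 expression minus each gene's Scr day 0 mean, for the 39 members (circles), 29 DNA replication genes (squares) and all 19937 genes (triangles), with 1 symbol per array and replicates 1 to 3 from left to right. The members sit near -0.4 in Scr day 9 and lower in shRunx2 cultures, where replicate 1 is lowest, while all genes stay near 0.

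The counts for each role stand beside 17.1% of all genes lower and 14.5% higher at day 9, and 4.66% lower in shRunx2 cells. Among the 6 spindle assembly factors and motors, all fell at day 9 and 2 were lower in shRunx2 cells. Kif4, a chromokinesin that works on chromosome arms and the anaphase midzone, had log2 levels of 9.86, 9.72 and 9.67 at Scr day 0, 9.22, 9.17 and 9.16 at Scr day 9 and 9.00, 9.14 and 8.97 in shRunx2 cells. Day 0 stood apart from day 9 by more than the spread of the replicates, and the highest shRunx2 culture came close to the lowest Scr culture. Its change was -0.57 ± 0.058 (SE) at day 9 and -0.14 ± 0.058 with the Runx2 hairpin (adjusted p = 0.187). Kif2c, a kinesin that takes microtubules apart at the centromere, had levels of 10.62, 10.55 and 10.50, then 10.02, 10.03 and 10.03, then 9.74, 9.78 and 9.75 in the same order of groups. Its Scr day 9 replicates were nearly identical, and each group lay wholly below the one before. Kif2c changed by -0.53 ± 0.038 and again by -0.27 ± 0.038 (adjusted p = 0.00144). Dlgap5, which stabilizes microtubules at kinetochores, fell by 0.53 at day 9 and had a log2 change of -0.17 in shRunx2 cells (adjusted p = 0.0478), which passed in 6 of the 18 alternatives and not with the replicate block (adjusted p = 0.0754). Tpx2, which activates Aurora A and nucleates spindle microtubules, fell by 0.50 (log2 change in shRunx2 cells -0.084, adjusted p = 0.279). The smallest falls of this role were those of the spindle factor Hmmr (-0.18) and of Kif11 (-0.14), the motor that pushes the spindle poles apart. Kif11 passed at day 9 in 8 of the 18 alternatives, and not with, among others, the replicate block (adjusted p = 0.0556) and leaving out Scr day 0 replicate 2 (adjusted p = 0.146).

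All 4 mitotic kinases fell at day 9, and 0 of 4 passed in shRunx2 cells. Their log2 changes there were nonetheless all below 0, from -0.16 to -0.11, near the members' median of -0.14. Aurka, the Aurora kinase of the centrosome and spindle poles, gave 10.90, 10.86 and 10.90 at Scr day 0, 10.24, 10.22 and 10.25 at Scr day 9, and 10.01, 10.16 and 10.17 in shRunx2 cells. The fall at day 9 was many times the spread between replicates, and the shRunx2 cultures lay below the Scr cultures, replicates 2 and 3 narrowly. It had the largest change of the 39 members at day 9, -0.65 ± 0.046 (1.57-fold, adjusted p = 6.31e-07), and one of -0.12 ± 0.046 in shRunx2 cells (adjusted p = 0.173). Plk1, the Polo-like kinase needed from mitotic entry to cytokinesis, read 11.83, 11.87 and 11.89, then 11.41, 11.41 and 11.39, then 11.11, 11.31 and 11.31. As with Aurka, shRunx2 replicate 1 was the lowest array of its group. The changes of Plk1 were -0.46 ± 0.052 at day 9 and -0.16 ± 0.052 in shRunx2 cells (adjusted p = 0.099). Ttk, the kinase that starts checkpoint signalling at kinetochores, fell by 0.43 at day 9 and Nek2, which splits the centrosomes, by 0.38.

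**Figure D3:**
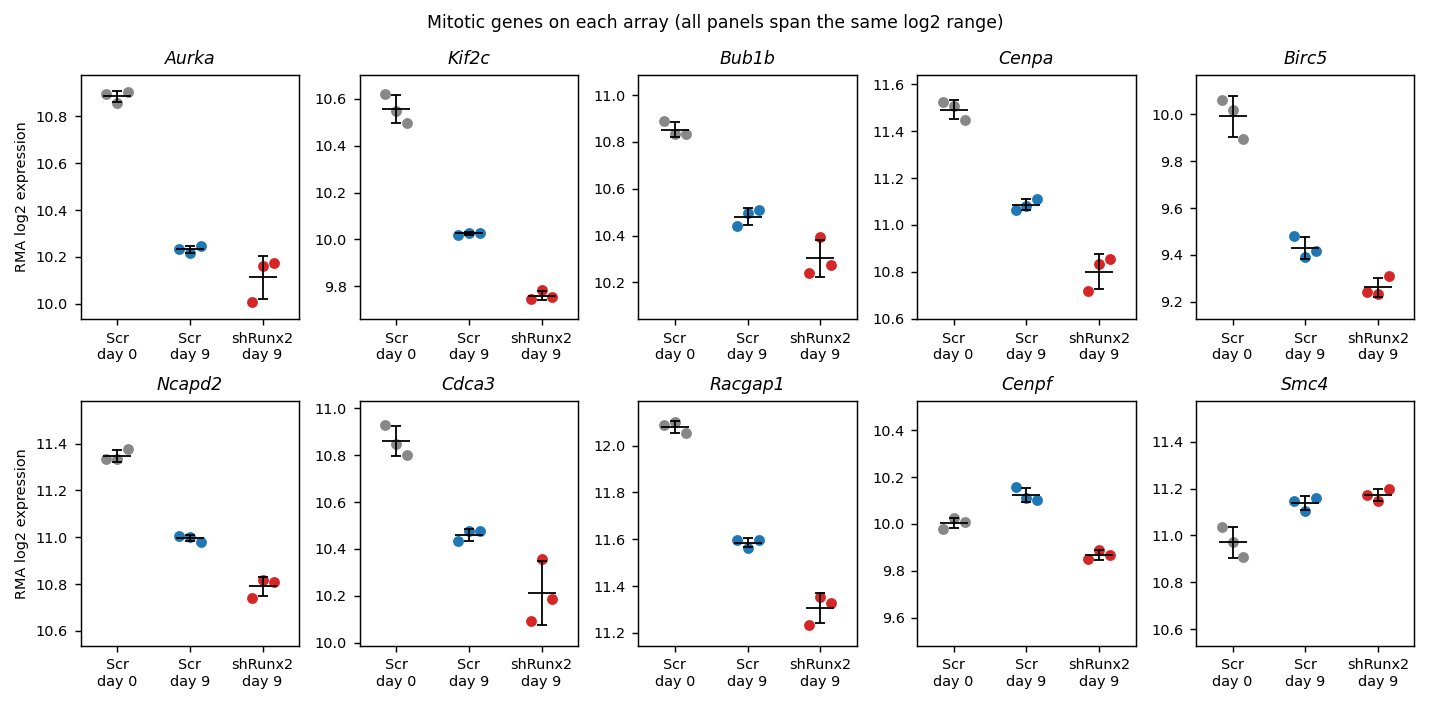
RMA log2 expression of 10 members on each of the 9 arrays, by group, with horizontal bars at the group mean and error bars of ± 1 SD (3 arrays). All panels span the same log2 range. The group means of Aurka, Kif2c, Bub1b, Cenpa, Birc5, Ncapd2, Cdca3 and Racgap1 step down from Scr day 0 to Scr day 9 and again in shRunx2 cultures. The step in shRunx2 cultures did not pass for Aurka and Birc5. Cenpf is highest at Scr day 9, and Smc4 is lowest at Scr day 0.

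The 3 spindle checkpoint genes fell at day 9 and 1 of them, Bub1b, was lower in shRunx2 cells. Bub1b encodes BubR1, a part of the complex that blocks the anaphase-promoting complex until chromosomes are attached. Its levels were 10.89, 10.83 and 10.83 at Scr day 0, 10.44, 10.50 and 10.51 at Scr day 9, and 10.24, 10.39 and 10.28 in shRunx2 cells, with no overlap between groups. It changed by -0.37 ± 0.045 and by -0.18 ± 0.045 (adjusted p = 0.0371). The kinase gene Bub1 had changes of -0.36 at day 9 and -0.15 in shRunx2 cells (adjusted p = 0.202), and Mad2l1, which holds Cdc20 inactive, of -0.27 and -0.10 (adjusted p = 0.304).

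Of the 5 kinetochore and centromere genes, 4 fell at day 9 and Cenpf rose, and 2 were lower in shRunx2 cells. Cenpa, the histone H3 variant that marks the centromere, had levels of 11.52, 11.51 and 11.45 at Scr day 0, 11.07, 11.08 and 11.11 at Scr day 9, and 10.72, 10.83 and 10.85 in shRunx2 cells. Each group lay clear of the next. Its change of -0.29 ± 0.044 in shRunx2 cells (1.22-fold, adjusted p = 0.00213) was the largest of the 39 members, after one of -0.41 ± 0.044 at day 9. Cenpf, a large protein of the outer kinetochore and nuclear envelope, went the other way during differentiation, from 9.98, 10.02 and 10.01 at Scr day 0 to 10.16, 10.11 and 10.10 at Scr day 9. In shRunx2 cells it read 9.85, 9.89 and 9.86, below every array of both Scr groups. The rise was 0.12 ± 0.035 (adjusted p = 0.0186). It did not pass when each array was centred on its median (0.080, adjusted p = 0.114), or without Scr day 0 replicate 1 (adjusted p = 0.0523) or Scr day 9 replicate 1 (adjusted p = 0.0518). The difference of -0.26 ± 0.035 between shRunx2 and Scr cells had the smallest adjusted p of the members (0.000862) and stayed between -0.28 and -0.24 in all 18 alternatives. Ndc80 and Nuf2, the paired proteins that grip microtubules, fell by 0.38 and 0.35 at day 9 and had log2 changes of -0.055 (adjusted p = 0.681) and -0.10 (adjusted p = 0.377) in shRunx2 cells. Cenpe, a kinesin that carries chromosomes to the spindle equator, fell by 0.29 at day 9 (in shRunx2 cells -0.17, adjusted p = 0.0936).

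The chromosomal passenger complex corrects faulty attachments and later moves to the midzone, and all 4 of its genes fell at day 9. Birc5, which encodes survivin, read 10.06, 10.02 and 9.89 at Scr day 0, 9.48, 9.39 and 9.42 at Scr day 9, and 9.24, 9.23 and 9.31 in shRunx2 cells. The groups did not overlap, yet the change in shRunx2 cells of -0.17 ± 0.049 did not pass (adjusted p = 0.0672), while that at day 9 was -0.56 ± 0.049. Aurkb, the kinase of the complex, was the one subunit that passed in both. Its values were 12.27, 12.38 and 12.33, then 12.01, 12.02 and 12.02, then 11.70, 11.91 and 11.79. The shRunx2 replicates of Aurkb were spread more widely than the Scr day 9 replicates, and all lay below them. It fell by 0.31 at day 9 and by 0.22 in shRunx2 cells (adjusted p = 0.0306), though not without shRunx2 replicate 1 (adjusted p = 0.115). Cdca8, which encodes borealin, and the scaffold Incenp fell by 0.50 and 0.41 at day 9, and their log2 changes of -0.059 and -0.080 in shRunx2 cells did not pass (adjusted p = 0.528 and 0.526).

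Condensin I folds chromosomes for segregation, and its subunits did not move as 1 unit. Of 6 genes in this role, 5 fell and 1 rose at day 9, and 2 were lower in shRunx2 cells. Ncaph, the kleisin that closes the ring, had levels of 11.53, 11.48 and 11.49 at Scr day 0, 11.02, 11.02 and 11.02 at Scr day 9, and 10.84, 10.99 and 10.87 in shRunx2 cells. Its fall at day 9 (-0.48 ± 0.042) was the largest of the role, and its change in shRunx2 cells was -0.12 ± 0.042 (adjusted p = 0.13). The HEAT-repeat subunit gene Ncapd2 went from 11.333, 11.333 and 11.378 to 11.006, 11.003 and 10.982, and to 10.742, 10.818 and 10.810 in shRunx2 cells. These replicates were tight and the groups far apart by comparison, with changes of -0.35 ± 0.036 and -0.21 ± 0.036 (adjusted p = 0.00465). Ncapg, the other HEAT-repeat subunit, fell by 0.26 and was also lower in shRunx2 cells (-0.21 ± 0.048, adjusted p = 0.025).

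By their estimates, the ATPase subunits, which condensin I shares with condensin II, were the least reduced of the complex. At day 9 Smc2 (-0.22 ± 0.057) was nevertheless close to Ncapg (-0.26 ± 0.048), and the difference was not tested. Smc2 fell by 0.22 at day 9 (adjusted p = 0.012), and not without Scr day 9 replicate 2 (adjusted p = 0.0502). Its partner Smc4 read 11.04, 10.97 and 10.91 at Scr day 0, 11.15, 11.11 and 11.16 at Scr day 9, and 11.17, 11.15 and 11.20 in shRunx2 cells. All day 9 arrays of Smc4 lay above all day 0 arrays, and the day 9 groups overlapped. It rose by 0.17 ± 0.041 (adjusted p = 0.00802), its log2 change in shRunx2 cells was 0.033 ± 0.041 (adjusted p = 0.731), and it alone was higher in shRunx2 cells than at day 0 (0.20, adjusted p = 0.00229). Top2a, the topoisomerase that untangles sister DNA, fell by 0.24 at day 9 and its log2 change in shRunx2 cells was -0.11 (adjusted p = 0.107). It was the one member with another probe set of its own, whose mean level was 6.62 against 11.47 for the one used, and with the mean of both the change in shRunx2 cells was 0.056 (adjusted p = 0.739).

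All 5 genes of sister separation and mitotic exit fell at day 9, and Cdca3 was the one that was lower in shRunx2 cells. Espl1, which encodes separase, the protease that cuts cohesin, read 10.00, 9.97 and 10.04 at Scr day 0, 9.57, 9.45 and 9.46 at Scr day 9, and 9.28, 9.45 and 9.47 in shRunx2 cells. The shRunx2 and Scr day 9 arrays overlapped, and shRunx2 replicate 1 was the array that stood below. Its log2 changes were -0.51 ± 0.055 and -0.096 ± 0.055 (adjusted p = 0.395). Cdca3, a trigger of mitotic entry, read 10.93, 10.85 and 10.80, then 10.43, 10.48 and 10.48, then 10.09, 10.36 and 10.19. Its shRunx2 cultures were the most scattered of the members that passed, and all lay below the Scr cultures. It changed by -0.40 ± 0.061 and -0.25 ± 0.061 (adjusted p = 0.0321), the latter not without shRunx2 replicate 1 (adjusted p = 0.122). The checkpoint target and activator of the anaphase-promoting complex, Cdc20, fell by 0.44 at day 9 (in shRunx2 cells -0.19, adjusted p = 0.0598). Cdca2, which brings a phosphatase to anaphase chromatin, fell by 0.34 and Cdca5, the cohesin protector sororin, by 0.32.

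Cytokinesis was the role with the most members lower in shRunx2 cells, 4 of 6, after all 6 had fallen at day 9. Without shRunx2 replicate 1, 2 of the 6 passed, Racgap1 and Prc1, and 2 of the 5 kinetochore genes. Racgap1, which joins Kif23 in the centralspindlin complex of the midzone, read 12.09, 12.10 and 12.05 at Scr day 0, 11.60, 11.56 and 11.60 at Scr day 9, and 11.24, 11.36 and 11.33 in shRunx2 cells. The steps between groups far exceeded the scatter within them. Its changes were -0.50 ± 0.040 at day 9 and -0.28 ± 0.040 in shRunx2 cells (adjusted p = 0.0013). Kif23 changed by -0.27 and by -0.22 ± 0.043 (adjusted p = 0.0104), the kinesin Kif20a, which moves passenger proteins to the midzone, by -0.45 and -0.24 ± 0.050 (adjusted p = 0.0125), and the microtubule bundler Prc1 by -0.31 and -0.24 ± 0.047 (adjusted p = 0.00993). Without shRunx2 replicate 1, Prc1 passed narrowly (adjusted p = 0.0498), while Kif20a (adjusted p = 0.0573) and Kif23 (adjusted p = 0.0516) did not. The remaining pair act at the cortex. Anln, the actin-binding scaffold of the contractile ring, fell by 0.43 at day 9, with a log2 change of -0.097 in shRunx2 cells (adjusted p = 0.183), and Ect2, the exchange factor that activates RhoA there, fell by 0.27, with one of -0.10 (adjusted p = 0.214). Whether the roles differ from each other in their response was not tested.

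Other genes of mitosis, listed by function and not by how they moved, were counted in the same fit. Over all genes, 17.1% were lower and 14.5% higher at day 9, and 4.66% lower and 2.73% higher in shRunx2 cells. Among 60 further kinetochore and spindle genes, 43 fell and 0 rose at day 9 (median log2 change -0.27), and 10 were lower and 0 higher in shRunx2 cells (median -0.10). Without shRunx2 replicate 1, 3 of the 10 passed, namely Aspm, Mki67 and Troap. Gtse1, a microtubule-binding protein of G2 and S phase, fell by 0.71 at day 9, the inner kinetochore gene Cenph by 0.79, and the spindle genes Spag5 and Tacc3 by 0.60 and 0.51. In shRunx2 cells the 2 with the smallest adjusted p were Troap, a spindle-associated protein (-0.17, adjusted p = 0.0101), and Mki67, the proliferation marker that coats mitotic chromosomes (-0.19, adjusted p = 0.0141). Of 12 mitotic cyclins and regulators of Cdk1, 8 fell and 1, the phosphatase inhibitor gene Ensa, rose at day 9 (0.29). Cdk1 and its small partner Cks1b fell by 0.36 and 0.66 at day 9, as did the phosphatase gene Cdc25c (-0.47) and its opposing kinase Wee1 (-0.41). In shRunx2 cells 4 of the 12 were lower. They were the cyclins Ccnb2 (-0.28, adjusted p = 0.00164) and Ccna2 (-0.17, adjusted p = 0.0183), Cdc25c (-0.28, adjusted p = 0.0241) and the Cdk-binding Cks2 (-0.18, adjusted p = 0.0346), of which Ccnb2 passed without shRunx2 replicate 1. Ensa and Cks2 fall outside the rule for named genes and were chosen after their values were seen. So were Lin52, Rb1, E2f5, Anapc5, Anapc10, Anapc11, Cdc27, Ncapd3, Stag2 and Tuba4a below.

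Among 21 regulators of mitotic transcription, 13 fell and 2 rose at day 9, the MuvB subunit Lin52 (0.14) and the retinoblastoma gene Rb1 (0.27). Foxm1 and Mybl2, which activate late cell cycle promoters, fell by 0.52 and 0.55 at day 9, but their log2 changes in shRunx2 cells were -0.041 (adjusted p = 0.681) and -0.10 (adjusted p = 0.302). The repressor E2f7 fell by 0.68 and the E2F partner Tfdp1 by 0.41 at day 9. In shRunx2 cells 3 of the 21 were lower, with and without shRunx2 replicate 1. They were Rbbp4, another MuvB subunit (-0.21, adjusted p = 0.00673), Nfya, the NF-Y subunit that recognizes the CCAAT box (-0.19, adjusted p = 0.0109), and the E2F family member E2f5 (-0.22, adjusted p = 0.0118). The anaphase-promoting complex and its partners were divided, with 7 of 18 lower and 4 higher at day 9 and 1 lower in shRunx2 cells. Over all genes the shares were 17.1%, 14.5% and 4.66%, so the count in shRunx2 cells was near that of all genes. The estimates there were still below 0 in 16 of the 18, as in 52.1% of all genes. Their median log2 change was -0.11, beside -0.14 in the members and -0.0041 over all genes. Among its subunit genes, Anapc15 (-0.78), Anapc5 (-0.15) and Cdc27 (-0.11) fell at day 9, and Anapc13 (0.43), Cdc26 (0.37), Anapc10 (0.23) and Anapc11 (0.22) rose. The ubiquitin-conjugating enzymes Ube2c and Ube2s fell by 0.33 and 0.31. Ube2s was also lower in shRunx2 cells (-0.21, adjusted p = 0.0473), though not without replicate 1 of that group. The late activator Fzr1 had a log2 change of -0.15 there (adjusted p = 0.0694). Of 14 condensin II and cohesin genes, 3 fell and 3 rose at day 9 and 1 was lower in shRunx2 cells, counts near the shares of all genes (17.1% lower and 14.5% higher at day 9, 4.66% lower in shRunx2 cells). In shRunx2 cells the estimate was nonetheless below 0 in all 14, with a median log2 change of -0.083. The condensin II genes Ncaph2 (-0.30) and Ncapd3 (-0.20) and the cohesin ring gene Rad21 (-0.22) fell, and the cohesin loader Nipbl (0.27), the cohesin subunit Stag2 (0.38) and the acetyltransferase Esco1 (0.44) rose. Rad21 was the 1 gene lower in shRunx2 cells (-0.16, adjusted p = 0.0233), again not without replicate 1.

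DNA replication genes, which act in S phase, were set beside the mitotic members. At day 9, 24 of 29 fell and 0 rose (median log2 change -0.39), led by the helicase genes Mcm2 (-0.49), Mcm5 (-0.51) and Mcm3 (-0.63) and by Cdc45 (-0.47). In shRunx2 cells 2 of 29 were lower (median -0.077), the ribonucleotide reductase subunit Rrm1 (-0.25, adjusted p = 0.00151) and the licensing factor Cdt1 (-0.19, adjusted p = 0.011), of which Rrm1 passed without replicate 1. Over all genes 17.1% fell at day 9 and 4.66% were lower in shRunx2 cells, so the count of replication genes in shRunx2 cells was near that of all genes. The estimate in shRunx2 cells was below 0 in 25 of the 29 replication genes, as in 52.1% of all genes. Their share lower in shRunx2 cells was smaller than in the mitotic members, a difference that was not tested. Tubulin genes, whose products form the spindle but also the interphase cytoskeleton, were counted in the same way. At day 9, 6 of 8 fell, among them Tubb3 (-1.29), Tubb2b (-0.70), Tubb6 (-0.65), Tuba1a (-0.47) and Tubb2a (-0.42). In shRunx2 cells 3 of 8 were higher, Tubb2a (0.18, adjusted p = 0.00918), Tubb2b (0.30, adjusted p = 0.0145) and Tuba4a (0.18, adjusted p = 0.0424), and 0 were lower, beside 2.73% of all genes higher. Without shRunx2 replicate 1, and likewise with arrays centred on their median, 2 of the 8 passed. Tubb2b did not pass without shRunx2 replicate 1, nor Tuba4a with arrays centred on their median. The beta-tubulin genes are near copies of each other, and how far their probes distinguish them was not examined.

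**Figure D4:**
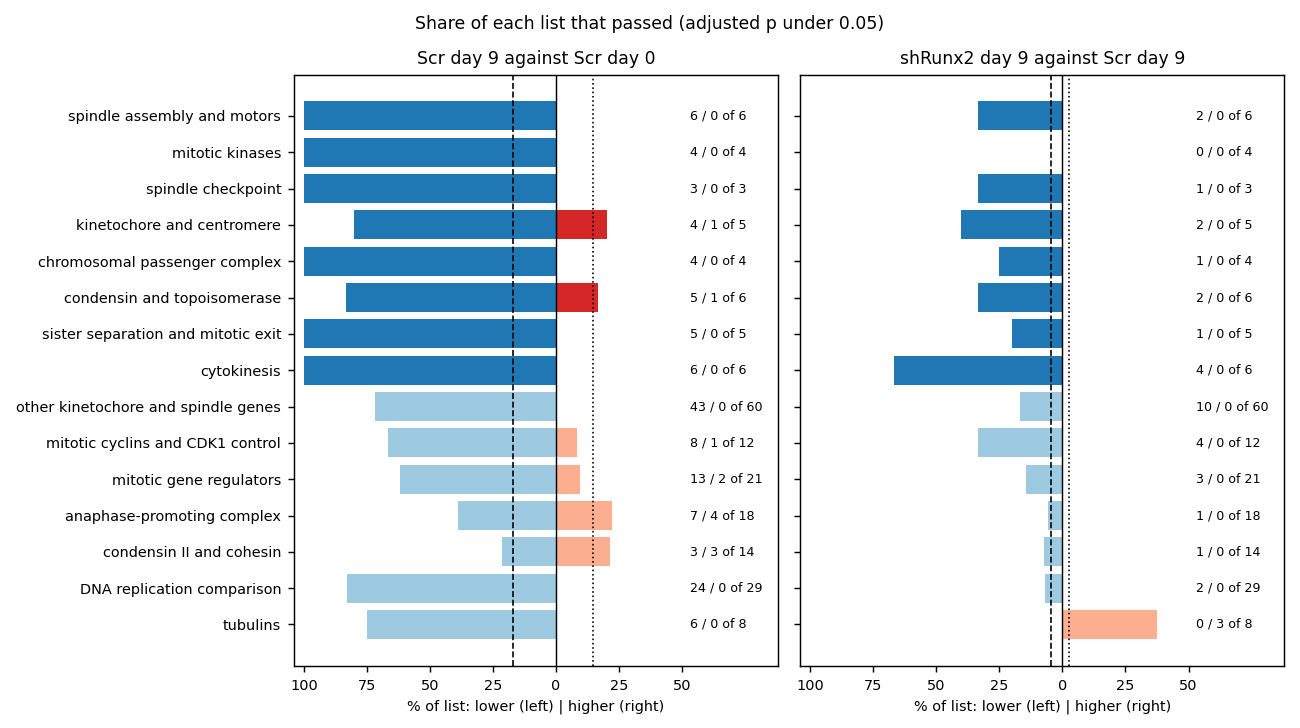
Share of each list, in %, that was lower (left of 0) or higher (right of 0) at an adjusted p under 0.05, for Scr day 9 against Scr day 0 and shRunx2 day 9 against Scr day 9. Dark bars are the 8 roles of the members, pale bars the other lists, the text gives the numbers lower and higher of those measured, and the dashed and dotted lines mark the shares of all genes lower (17.1% and 4.66%) and higher (14.5% and 2.73%). Cytokinesis has the longest bar in shRunx2 cells and, of the lists drawn, which leave out the cell type markers, tubulins alone extend to the right there.

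Markers of differentiation and of other cell types were read beside these results. Of all genes, 14.5% rose and 17.1% fell at day 9, and 2.73% were higher and 4.66% lower in shRunx2 cells. Of 12 osteoblast markers listed, 9 were measured. At day 9, 6 of them rose (Alpl, Ibsp, Phex, Sp7, Dmp1 and Mmp13), by 0.31 to 3.77 on the log2 scale, and 3 did not pass. The 6 without Dmp1 were lower in shRunx2 cells, with changes of -1.94 to -0.21, and 4 of the 9 did not pass there. The list mean rose from between 9.98 and 10.05 on the Scr day 0 arrays to between 11.33 and 11.39 at Scr day 9, and was between 10.77 and 10.80 in shRunx2 cells. None of the 6 adipocyte or the 6 endothelial markers passed in either comparison, among them Adipoq, Plin1, Pecam1 and Cdh5. Of 6 skeletal muscle markers, Ckm alone fell at day 9, by 0.20, and 0 passed in shRunx2 cells. Of 7 macrophage and leukocyte markers 1, Lyz2, passed, and it was higher at day 9 (0.80, adjusted p = 2.21e-05) and higher again in shRunx2 cells (0.42, adjusted p = 0.0125), whereas Ptprc, Cd68 and Csf1r did not pass. The mean of that list was 7.72 on each Scr day 0 array, between 7.81 and 7.84 at Scr day 9 and between 7.86 and 7.91 in shRunx2 cells. The list's median log2 change was only 0.0092 at day 9 and 0.0060 in shRunx2 cells, so the rise of the mean was not shared across the list. The part of differentiation stage or of Lyz2 in the levels of the mitotic genes was not tested.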

How the data were processed

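RNA from 9 MC3T3-E1 cultures in 3 groups of 3 was measured on Affymetrix Mouse Gene 1.0 ST arrays. The deposited values are log2 expression values that the authors made by RMA: background correction, quantile normalization between arrays, and median polish over the probes of a probe set. A filter named in the methods is not described, and the genome build is not given in the sources used here. Of 34760 probe sets, 21640 carried 1 gene symbol in the platform annotation, 1321 carried several and 11799 were unnamed here. Where a gene had several (954 genes), the brightest over the 9 arrays was kept, which left 19937 genes. Among the members this applied to Top2a.

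Group means were fitted to all 9 arrays by lmFit and eBayes of limma 3.58.1 (R 4.3.3) with no covariate, with Benjamini-Hochberg adjustment across the 19937 genes. A gene rose or fell where its adjusted p was under 0.05. Precision is limited by the number of arrays, which give no depth. In 18 alternatives the samples, filter, probe sets, normalization, weights, prior or pairing were changed or 1 array was left out. All members were named, with array values for those of largest change in each role and for the exceptions Cenpf and Smc4. From each other list, up to 4 genes of smallest adjusted p at day 9 and up to 2 in shRunx2 cells were named, and marker genes were named after their values were seen. The members and lists were chosen with earlier results of these data known, so medians and counts of lists carry no test. Promoter windows came from a RefSeq table of GRCm38.p6 and were searched with Python 3.11.15, and CHR matches were shown for the 4 members of largest fall that had one. Runx2 and some listed genes are not analysed here.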

Additional observations from a re-analysis of the deposited data

How the results depend on the processing

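The members' direction was kept in all alternatives but 1. With the mean of all probe sets of a gene, Top2a had a log2 change of 0.056 in shRunx2 cells (adjusted p = 0.739) and lost its call against day 0 (adjusted p = 0.119). The number of members lower at day 9 was 35 to 37 in all alternatives, and that against day 0 in shRunx2 cells was 37 or 38. With the genes above the median expression, 38 members were measured, as Ttk was left out. The number lower in shRunx2 cells was least stable, with 7 when every probe set entered, 6 to 13 when 1 array was left out, 16 with arrays centred on their median, and 19 both with array weights and with the genes above the median expression. The cause was not tested. With every probe set more features enter the adjustment. Centring moved the median change of the members to -0.42 at day 9 and -0.60 in shRunx2 cells against day 0. When 1 array was left out, the median ranged from -0.40 to -0.35 at day 9, from -0.16 to -0.12 in shRunx2 cells against Scr day 9 and from -0.57 to -0.51 against day 0, the lowest without shRunx2 replicate 2. Leaving out an array gave 35 to 37 members lower at day 9 and 38 against day 0. Over the whole table the genes lower in shRunx2 cells numbered 930, but 590 with every probe set, 1673 with array weights and 503 without Scr day 9 replicate 2. Genes lower against day 0 numbered 6136 in place of 4063 with centring.

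The labels number the cultures 1 to 3 in each group. With the replicate block 36 members were lower at day 9, 12 in shRunx2 cells and 38 against day 0. Correlations of same-numbered cultures over all genes were -0.037, 0.096 and -0.11 between Scr day 9 and shRunx2, and 0.29, 0.082 and 0.29 between Scr day 0 and Scr day 9, where Scr day 9 replicate 2 was nearer to another number. Over the 39 members alone they were 0.12, 0.23 and 0.22 between Scr day 9 and shRunx2, where differently numbered cultures gave -0.25 to 0.044. Between Scr day 0 and Scr day 9 they were -0.050, 0.12 and -0.17, and differently numbered cultures gave -0.26 to 0.29. Between Scr day 0 and shRunx2 they were 0.41, -0.047 and -0.17, and differently numbered cultures gave -0.29 to 0.29. The labels give no shared origin and not every pair exceeded 0.1 over all genes, so the numbers were not taken as pairs, though the members leave a pairing of the day 9 cultures possible.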
